A study of Homo sapiens with 12 samples.

Results

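The genes described here encode splicing factors and related RNA-binding proteins, chosen by their symbols alone. A gene was a member when its symbol began with SNRP, SF3, SRSF, HNRNP, PRPF, U2AF, RBM, DDX or DHX, or with LSM and a digit. The rule found 66 members, read by 70 probes, among the 5499 genes named on the array. They fall into 8 families of 15 HNRNP, 13 DDX, 11 RBM, 7 DHX, 7 U2 and branch site (SF3 and U2AF), 6 SNRP and LSM, 5 SRSF and 2 PRPF genes.

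Introns are removed from pre-mRNA by the spliceosome, which is assembled at each intron from small nuclear ribonucleoproteins (snRNPs). Each snRNP holds a small nuclear RNA inside a ring of Sm or LSm proteins. The U2 snRNP, with its SF3A and SF3B subunits, marks the branch site, and U2AF marks the end of the intron. SR proteins (SRSF genes) mostly favour the use of nearby exons, hnRNP proteins often oppose it, and RBM proteins form a mixed group of regulators. DEAD-box and DEAH-box proteins (DDX and DHX genes) are RNA helicases that act in splicing, ribosome assembly, translation and RNA decay. 5-fluorouracil (5-FU) is a uracil analogue that blocks thymidylate synthase and is also built into RNA, including ribosomal and small nuclear RNA, in place of uracil.

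H460 is an established human lung cancer line. Its RNA was read on 12 arrays, each of which set cells exposed to 1 of 5 drugs for 24 h against untreated H460 cells in the second colour channel. The drugs were 5-FU at 1 µM, the cytidine analogue cytarabine at 0.2 µM, the DNA crosslinker cisplatin at 5 µM, the microtubule stabiliser paclitaxel at 5 nM and the actin poison cytochalasin D at 0.2 µM. 5-FU has 4 arrays, a forward array (treated RNA in channel 2) and a reversed array (treated RNA in channel 1) for each of 2 replicates. Each other drug has 2 arrays, both with treated RNA in channel 1. Nothing in the labels tells whether the replicates are separate cultures, or whether the drugs share their untreated RNA, so the p-values measure the spread between these samples, which may be technical, and the 5 comparisons may share controls. Replicate numbers below only name arrays.

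All values are log ratios of treated over untreated RNA, taken as log2, with each array centred on its own median. The deposited files state neither the base nor the numerator. The direction was set so that MDM2 and CDKN1A, both known targets of p53, are positive with 5-FU. Before centring, MDM2 averages 1.49 over the 4 5-FU arrays and CDKN1A 2.51 over the 2 reversed arrays that measured it. Every "rose" and "fell" below rests on that choice. A ratio holds no level, so the genes cannot be ranked by abundance and the markers of the cell line cannot be checked. In RNA from whole cultures, fewer cells of a kind and less RNA per cell cannot be told apart. Between 4357 and 6411 probes gave a value on the 5-FU arrays (21.5 to 46.7% missing), and between 6989 and 7644 on the arrays of the other drugs (6.44 to 14.5% missing). The number of arrays limits the precision of every value. A 5-FU replicate is the mean of its forward and reversed array, in which a channel effect cancels. For the other 4 drugs the channel effect stays in the ratio against untreated RNA. Errors are standard errors (SE) of a limma fit across all features, and a call is an adjusted p (Benjamini-Hochberg over all features) under 0.05. The fit takes 1 spread per gene over all 5 drugs, so an SE does not describe 1 drug alone. It weighs a 5-FU mean of 2 arrays like a single array of another drug. For DDX21 the SE is 0.05 with each drug, though its 5-FU arrays run from -0.97 to 0.65. With each array entered separately, DDX21 kept no call (limma adjusted p from 0.28 to 0.62).

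With 5-FU, 14 of the 51 members that could be tested fell and 2 rose, led by HNRNPA1 and RBMX, which fell to well under the untreated level on all 4 arrays. The fallen members included 5 hnRNP genes, 3 RBM genes, 3 DEAD-box helicases, the Sm protein SNRPF, the SF3B subunit SF3B3 and the SR protein SRSF9. This is 27.5% of the tested members falling, where 12% of all tested features fell, and 3.92% rising, where 5.41% of all rose. The members' median was -0.108, against 0.008 over all features, and 72.5% of members were below 0, against 47.9% of all features. The highest was RBM15 at 0.52.

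Not every member could be read. With 5-FU, 38 members had both replicates and 14 had 1. Another 14 had none, 4 of them without a value on any 5-FU array (DDX10, DDX6, HNRNPM and SRSF8) and 10 with values that gave no forward and reversed pair. HNRNPLL was read in 1 5-FU replicate but has too few other values for a test. Only 35 members had a value on all 12 arrays. Of the 66 members, 35 were called with at least 1 drug and 31 with none. The share of all features called with at least 1 drug is not given here, so this count does not set members apart.

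**Figure D1:**
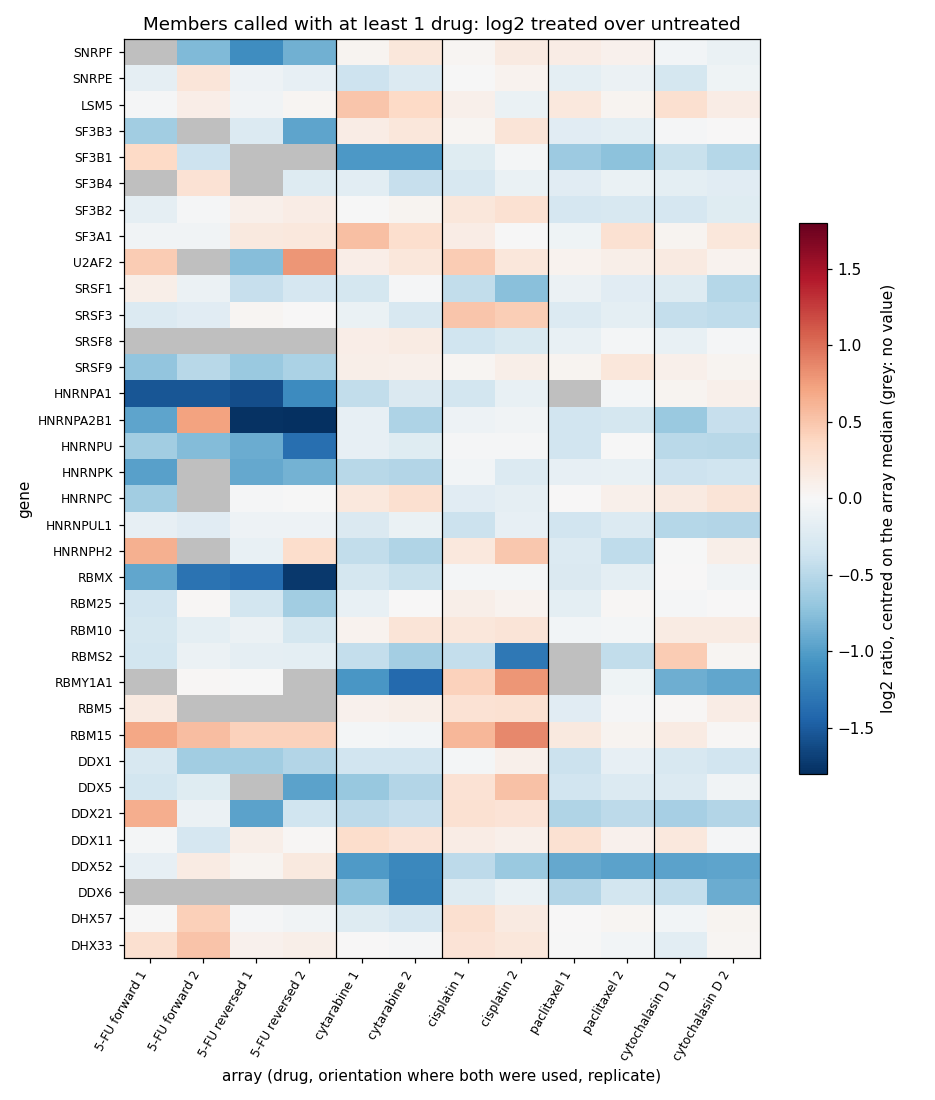
Log2 ratio of treated over untreated RNA, as colour, for the 35 members called with at least 1 drug (rows, ordered by family) on each of the 12 arrays (columns, grouped by drug), with missing values in grey. HNRNPA1, HNRNPA2B1 and RBMX are among the lowest in the 5-FU columns, with the exception of HNRNPA2B1 on forward array 2 (0.73), and DDX52 is low with each other drug.

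The hnRNP genes were the family with the most falls with 5-FU, 5 of the 11 tested, with none rising (1 at an unadjusted p under 0.05) and a family median of -0.321. HNRNPA1, an abundant nuclear protein known to repress exon inclusion, read -1.54 and -1.53 on the forward arrays of replicates 1 and 2 and -1.60 and -1.13 on the reversed arrays. All 4 arrays were far below 0, and the gene was 2.74-fold lower (log2 ratio -1.45 ± 0.09 SE, n = 2 replicates, adjusted p = 7.8e-05 in limma). HNRNPU, which binds RNA and chromatin in the nucleus, read -0.63 and -0.78 forward and -0.89 and -1.36 reversed, and fell by 0.92 ± 0.10 (n = 2, adjusted p = 0.00047). Its 4 arrays spread over a wider range than those of HNRNPA1 but none came near 0. HNRNPK, a KH-domain protein that binds C-rich RNA, read -0.98 forward in replicate 1, had no forward value in replicate 2, and read -0.92 and -0.85 reversed. The 3 values lay close together, and the fall of 0.95 ± 0.09 (adjusted p = 0.00057) rests on 1 replicate with both orientations.

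HNRNPA2B1, a close relative of HNRNPA1 and a protein also known from RNA transport, did not read alike on its 4 arrays. It was at -0.96 and 0.73 on the forward arrays and at -1.79 and -1.80 on the reversed arrays. The fitted fall of 0.95 ± 0.18 (n = 2, adjusted p = 0.00897) therefore averages 3 low arrays and 1 high one, and without replicate 1 it was -0.54 with an adjusted p of 0.0725. HNRNPC, which binds uridine tracts in nascent RNA, read -0.62 forward and -0.02 and -0.00 reversed. Its fall of 0.32 ± 0.08 (adjusted p = 0.0399) comes from 1 replicate, in which the forward array alone was low, and was lost without any 1 of the 8 arrays of the other drugs. HNRNPF, a G-tract binding protein, was at -0.49 and missed the threshold (adjusted p = 0.0507). The remaining 5 tested hnRNP genes, HNRNPUL1, HNRNPA3, HNRNPAB, HNRNPH3 and HNRNPH2, ran from -0.13 to 0.26 without a call.

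Among the RBM genes 3 of 7 fell with 5-FU and 1 rose. RBMX, the X-linked gene of hnRNP G, read -0.93 and -1.33 on the forward arrays and -1.39 and -1.73 on the reversed arrays. Its fall was 2.54-fold (-1.35 ± 0.09, n = 2, adjusted p = 4.8e-05), the smallest adjusted p of the members with 5-FU. RBM25, a regulator that works with the U1 snRNP, read -0.35, 0.03, -0.34 and -0.62 (forward 1, forward 2, reversed 1, reversed 2), so its fall of 0.32 ± 0.06 (adjusted p = 0.0124) holds 1 array at 0. RBM10, a regulator of exon skipping, was below 0 on all 4 arrays, from -0.32 to -0.10, and fell by 0.23 ± 0.06 (adjusted p = 0.0275). Neither call held when 1 5-FU replicate was left out, with RBM25 at -0.30 and -0.34 and RBM10 at -0.25 and -0.21 without replicates 1 and 2. RBM10 was also lost without either cytochalasin D array (-0.23).

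RBM15, a protein that brings the m6A methyltransferase complex to its RNA targets, went the other way. It read 0.69 and 0.56 forward and 0.41 and 0.42 reversed, and rose 1.43-fold (0.52 ± 0.08, n = 2, adjusted p = 0.00249). All 4 arrays were above every array of cytarabine, paclitaxel and cytochalasin D. In the direct limma comparison of drugs described below, RBM15 was called higher than with cytarabine only (adjusted p = 0.0204). It was not called against paclitaxel (adjusted p = 0.104) or cytochalasin D (adjusted p = 0.0817). The call against cytarabine was lost without either 5-FU replicate (0.46 and 0.45) or either cytarabine array (0.46 and 0.45). Its paralogue RBM15B was read by 2 probes that differed in sign over the 5-FU arrays, with means of 0.28 and -0.30, and their average gave no call. The 2 probes of DDX11, at 0.09 and -0.10, also differed in sign.

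**Figure D2:**
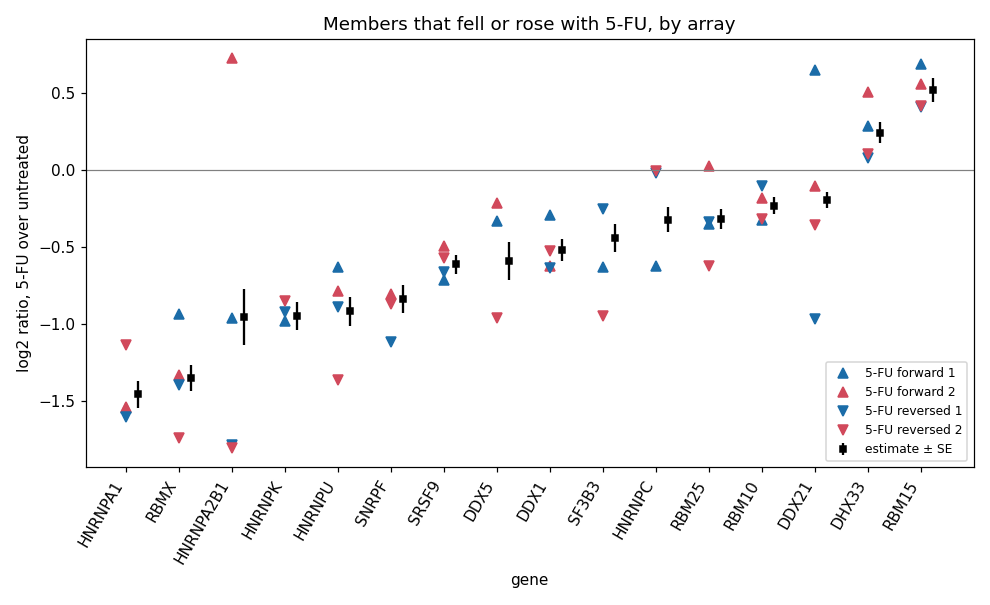
Log2 ratio of 5-FU over untreated RNA (vertical axis) for the 16 members called with 5-FU. Triangles are single arrays, pointing up for forward and down for reversed, and squares with bars are the fitted estimate and its SE. HNRNPA1, RBMX, HNRNPU and SRSF9 have all 4 points below 0, while HNRNPA2B1 and DDX21 have forward points at 0.73 and 0.65.

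Core snRNP genes mostly showed no call with 5-FU. Of the 6 SNRP and LSM genes only SNRPF fell. SNRPF encodes a protein of the Sm ring that is shared by the U1, U2, U4 and U5 snRNPs. It had no forward value in replicate 1, read -0.80 forward in replicate 2, and read -1.12 and -0.87 reversed, for a fall of 0.83 ± 0.09 from 1 complete replicate (adjusted p = 0.00113). Its ring partners SNRPE and SNRPG were at -0.04 and -0.05 (adjusted p = 0.764 and 0.748), and SNRPN, a neuronal Sm protein from the imprinted region of chromosome 15, was at -0.38 (adjusted p = 0.192). The LSm genes LSM1 and LSM5 were at -0.04 and 0.02.

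Of the 6 tested U2 and branch site genes, SF3B3 fell, with -0.63 forward and -0.25 and -0.95 reversed (-0.44 ± 0.09, 1 complete replicate, adjusted p = 0.0185). The other SF3B and SF3A subunits tested lay between 0.01 and 0.32, and U2AF2 was at -0.16. U2AF2 has 1 complete replicate and read 0.45 forward and -0.76 and 0.79 reversed, so its arrays differ in sign. SF3A3, at 0.32, had an adjusted p of 0.0647. It also has 1 complete replicate, and read 0.42 forward and 0.21 and -0.67 reversed. SF3B1, the subunit that grips the branch site, had 2 forward values of opposite sign (0.36 and -0.37) and no reversed value, so its ratio with 5-FU cannot be given. The genes of the tri-snRNP, PRPF8 and PRPF3, were at -0.02 and 0.09, and PRPF3 ran from -0.67 to 1.46 over its 4 arrays.

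Among the 4 tested SR genes SRSF9 fell. It read -0.71 and -0.49 forward and -0.66 and -0.57 reversed, a tight set of 4 values (-0.61 ± 0.06, n = 2, adjusted p = 0.00042). SRSF4 read -0.45 and 0.46 forward and -0.93 and -0.62 reversed, and its mean of -0.39 was not called (adjusted p = 0.111). SRSF1 and SRSF3 were at -0.18 and -0.10 without a call.

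Of the 9 tested DEAD-box helicases 3 fell with 5-FU. DDX5, also called p68, a cofactor of splicing and transcription, read -0.33 and -0.22 forward and -0.96 on the only reversed array that measured it (-0.59 ± 0.12, 1 complete replicate, adjusted p = 0.0183). DDX1, a helicase of the tRNA ligase complex, was below 0 on each array, from -0.63 to -0.29, and fell by 0.52 ± 0.07 (adjusted p = 0.00173). DDX21, a nucleolar helicase that acts on ribosomal RNA, read 0.65 and -0.10 forward and -0.97 and -0.35 reversed. Its called fall of 0.19 ± 0.05 (adjusted p = 0.0424) is far smaller than the difference between its arrays and was lost on leaving out any of the 10 replicates, at -0.23 and -0.16 without 5-FU replicates 1 and 2. Among 6 DEAH-box genes DHX33, known from ribosomal RNA synthesis, rose by 0.24 ± 0.07 (0.29 and 0.51 forward, 0.08 and 0.10 reversed, adjusted p = 0.04). That call was lost without either 5-FU replicate, at 0.31 and 0.18, and without any 1 array of cytarabine, cisplatin or paclitaxel (0.24).

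Across the 14 members that fell with 5-FU, 11 were below 0 on every 5-FU array that measured them, and HNRNPA2B1, RBM25 and DDX21 were not. With replicate 1 left out, 41 members could be tested and 8 were called (7 fell, 1 rose). Members of these families have close relatives and processed pseudogenes, HNRNPA1 and RBMX among them, and what share of a probe's signal came from such copies was not tested.

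The start regions of the 7 members with a promoter in the table that were lower with 5-FU than with each other drug, and of RBM15, the largest rise with 5-FU, are shown. Each is the 250 bases before the annotated start, read in the direction of the gene, from RefSeq on GRCh38.p14. Capitals mark matches, on either strand, to the CCAAT box (CCAAT), the GC box (GGGCGG), the TATA box (TATAAA), the E box (CACGTG), the ETS core (CCGGAAG) and the ZBTB33 palindrome. The region of SRSF9 holds no match, and where a CCAAT match on each strand overlaps, the capitals run on. RBMX lies at chrX:136880726-136880975 (minus strand), HNRNPU at chr1:244864544-244864793 (minus), HNRNPA2B1 at chr7:26200747-26200996 (minus), HNRNPK at chr9:83980616-83980865 (minus), SRSF4 at chr1:29181901-29182150 (minus), SRSF9 at chr12:120469749-120469998 (minus), SNRPF at chr12:95858702-95858951 (plus) and RBM15 at chr1:110339127-110339376 (plus).
RBMX: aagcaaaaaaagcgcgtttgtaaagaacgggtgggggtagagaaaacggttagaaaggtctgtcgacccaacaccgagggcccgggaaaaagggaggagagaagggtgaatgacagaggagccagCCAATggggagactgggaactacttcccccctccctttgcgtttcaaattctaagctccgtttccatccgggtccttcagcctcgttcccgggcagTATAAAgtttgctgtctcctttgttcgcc
HNRNPU: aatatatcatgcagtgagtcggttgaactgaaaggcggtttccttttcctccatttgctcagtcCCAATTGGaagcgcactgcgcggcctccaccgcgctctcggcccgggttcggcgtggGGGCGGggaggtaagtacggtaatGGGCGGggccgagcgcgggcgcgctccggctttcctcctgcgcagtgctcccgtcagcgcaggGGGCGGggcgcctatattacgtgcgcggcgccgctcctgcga
HNRNPA2B1: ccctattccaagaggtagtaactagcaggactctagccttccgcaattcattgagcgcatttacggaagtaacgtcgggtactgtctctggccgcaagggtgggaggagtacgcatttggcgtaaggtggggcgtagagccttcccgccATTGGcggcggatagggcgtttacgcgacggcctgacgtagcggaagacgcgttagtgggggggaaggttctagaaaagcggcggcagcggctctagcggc
HNRNPK: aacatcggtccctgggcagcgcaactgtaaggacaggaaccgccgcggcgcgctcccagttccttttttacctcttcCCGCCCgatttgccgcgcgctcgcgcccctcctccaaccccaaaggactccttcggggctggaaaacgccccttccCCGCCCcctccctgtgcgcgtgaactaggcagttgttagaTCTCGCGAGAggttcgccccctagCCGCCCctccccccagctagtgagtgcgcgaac
SNRPF: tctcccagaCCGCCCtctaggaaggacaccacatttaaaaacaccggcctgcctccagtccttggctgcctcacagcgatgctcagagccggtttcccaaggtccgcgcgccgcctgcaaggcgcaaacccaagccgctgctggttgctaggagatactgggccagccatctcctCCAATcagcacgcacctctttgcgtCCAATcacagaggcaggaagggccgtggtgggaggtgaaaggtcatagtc
SRSF4: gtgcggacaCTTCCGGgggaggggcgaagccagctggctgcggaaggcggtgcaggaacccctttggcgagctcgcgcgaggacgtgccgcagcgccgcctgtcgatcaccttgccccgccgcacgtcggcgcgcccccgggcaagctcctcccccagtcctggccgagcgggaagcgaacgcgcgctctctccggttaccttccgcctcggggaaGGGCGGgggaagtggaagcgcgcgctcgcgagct
SRSF9: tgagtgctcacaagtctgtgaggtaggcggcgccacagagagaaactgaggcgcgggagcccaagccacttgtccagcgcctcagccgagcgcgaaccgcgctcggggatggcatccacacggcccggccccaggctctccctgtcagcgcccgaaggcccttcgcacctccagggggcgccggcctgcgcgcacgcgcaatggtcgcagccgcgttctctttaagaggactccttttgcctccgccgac
RBM15: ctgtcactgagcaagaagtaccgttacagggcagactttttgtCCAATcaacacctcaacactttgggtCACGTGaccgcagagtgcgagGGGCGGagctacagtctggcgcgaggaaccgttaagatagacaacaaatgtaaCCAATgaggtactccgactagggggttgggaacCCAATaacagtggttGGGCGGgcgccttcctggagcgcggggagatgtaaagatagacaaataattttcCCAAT

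A promoter was matched for 60 of the 66 members. The CCAAT box was found in 30 of them (50%) and in 33% of all 27305 promoters of the same length. It was in 4 of the 7 matched genes that were lower with 5-FU than with each other drug, namely HNRNPA2B1, HNRNPU, RBMX and SNRPF. RBM15 holds 4 matches. The GC box was in 63.3% of members against 42.3% of all promoters, and in 4 of those 7 genes. The ETS core (CCGGAAG) was in 35% of members against 8.82% of all, but in 1 of the 7, SRSF4. The E box was in 20% against 6.49%, and in 0 of the 7. A TATA box was in 8.33% of members against 11.1% of all. The NRF1 core was in 3.33% against 1.13%, and the ZBTB33 palindrome in 1.67% against 0.41%. Median GC content was 62.8% in the members, 65.6% in the 7 and 58% in all promoters. These are counts of letters in the window and not binding sites.

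With cytarabine, DDX52, SF3B1 and DDX6 were the lowest members after a Y-linked multicopy probe. Of 62 members tested, 15 fell (24.2%, where 16.6% of all features fell) and 4 rose (6.45%, where 11.6% of all rose). DDX52 is a helicase known from the assembly of the small ribosomal subunit, SF3B1 is the branch site protein, and DDX6 is a helicase of mRNA decapping. DDX52 read -1.03 and -1.16 on the 2 arrays (-1.09 ± 0.07, adjusted p = 8.5e-05) and SF3B1 read -1.03 and -1.04 (-1.03 ± 0.07, adjusted p = 0.00013). DDX6 read -0.74 and -1.18 (-0.96 ± 0.14, adjusted p = 0.00351). The largest fall was that of the RBMY1A1 probe, at -1.05 and -1.40 (-1.22 ± 0.12, adjusted p = 0.00144), for a gene whose copies it may not tell apart.

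Smaller falls with cytarabine included DDX5 (-0.61 ± 0.09), HNRNPK (-0.51 ± 0.06), HNRNPH2 (-0.49 ± 0.09) and DDX21 (-0.45 ± 0.05). RBMX and HNRNPA1, the leading falls of 5-FU, were at -0.35 each with cytarabine (SE 0.09, adjusted p = 0.0191 and 0.0263). In all, 6 of the 14 members that fell with 5-FU (42.9%) are among the 15 that fell with cytarabine (40%), and the 2 comparisons may share untreated RNA. How many of all features fell with both drugs is not given here, so this overlap cannot be read as a trait of the members. The 4 rises were LSM5 (0.43), SF3A1 (0.42), DDX11 (0.28) and HNRNPC (0.24). When the channel effect was estimated from the 5-FU arrays and removed, 49 members could be tested and 7 were called, with HNRNPC at -0.07 and DDX21 at 0.02 on the other side of 0. DDX5 (-0.23), HNRNPH2 (-0.11), RBMX (-0.14), SF3B4 (-0.05), DHX57 (-0.14), DDX1 (-0.29), SNRPE (-0.24), SF3A1 (0.30) and DDX11 (0.17) also lost their calls, while DDX52, HNRNPK, HNRNPA1, SRSF3 and LSM5 held theirs. SF3B1, DDX6 and the RBMY1A1 probe had no 5-FU pair from which to estimate the term. Over all features that term turned 812 rises and 1165 falls into 514 and 536. The calls of HNRNPA1 (-0.26 and -0.45) and RBMX (-0.40 and -0.31) were lost without cytarabine replicates 1 and 2, as were those of DDX11 (0.25 and 0.31), HNRNPC (0.28 and 0.19), DDX1 (-0.35 and -0.35), SNRPE (-0.25 and -0.38) and DHX57 (-0.30 and -0.23). HNRNPH2 (-0.44), SF3B4 (-0.18) and SRSF3 (-0.12) were lost without replicate 2 and LSM5 (0.36) and SF3A1 (0.30) without replicate 1.

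With cisplatin more members rose than fell. Of 63 tested, 10 rose (15.9%, where 7.93% of all features rose) and 5 fell (7.94%, where 10.2% of all fell), and the members' median was 0.058 against -0.000 over all features. With each array entered separately the order turned, with 3 rises and 5 falls. RBM15 led, at 0.60 and 0.87 (0.73 ± 0.08, adjusted p = 0.00091). It is the only member called as rising with both 5-FU and cisplatin, and its highest 5-FU array (0.69) lies above the lower cisplatin array. DHX33, the other member that rose with 5-FU (0.24), was at 0.22 with cisplatin and just missed the threshold (adjusted p = 0.0537). SRSF3, the smallest SR protein, read 0.49 and 0.44 (0.47 ± 0.06, adjusted p = 0.00171) and DDX5 read 0.27 and 0.53 (0.40 ± 0.09, adjusted p = 0.0231). HNRNPH2 (0.34), U2AF2, which binds the polypyrimidine tract (0.33), DDX21 (0.26), RBM5 (0.26), SF3B2 (0.24), RBM10 (0.22) and the RBMY1A1 probe (0.61) also rose.

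The falls with cisplatin included SRSF1, a founding SR protein. Its 3 probes averaged -0.44 and -0.76 (-0.60 ± 0.11, adjusted p = 0.00808). DDX52 read -0.47 and -0.67 (-0.57 ± 0.07, adjusted p = 0.00223). RBMS2, a protein that binds single-stranded DNA and RNA, read -0.43 and -1.29 (-0.86 ± 0.20, adjusted p = 0.0281), and the pair differ by as much as the change itself. SRSF8 (-0.32) and HNRNPUL1 (-0.27) fell less. Without cisplatin replicate 2 the calls of RBMS2 (-0.43), SRSF1 (-0.44), DDX5 (0.27) and RBMY1A1 (0.41) were lost, and without replicate 1 those of U2AF2 (0.20) and HNRNPUL1 (-0.15); 6 smaller calls were lost without either. These were HNRNPH2 (0.49 and 0.19 without replicates 1 and 2), DDX21 (0.24 and 0.28), RBM5 (0.27 and 0.25), SF3B2 (0.27 and 0.21), RBM10 (0.23 and 0.20) and SRSF8 (-0.28 and -0.36). With the channel term the calls of SF3B2 (0.14), RBM10 (0.20), SRSF1 (-0.42) and RBMS2 (-0.88) were lost.

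Paclitaxel and cytochalasin D, which act on the cytoskeleton, gave calls in the downward direction only. With paclitaxel 5 of 65 members fell (7.69%, where 8.68% of all features fell) and 0 rose in the limma test (2 at an unadjusted p under 0.05; 2.25% of all features rose). With cytochalasin D 11 of 64 fell (17.2%, where 9.8% of all fell) and 0 rose (4 at an unadjusted p under 0.05; 2.99% of all rose). DDX52 led both, at -0.92 and -0.97 with paclitaxel (-0.94 ± 0.07, adjusted p = 0.00039) and -0.96 and -0.96 with cytochalasin D (-0.96 ± 0.07, adjusted p = 0.00036). SF3B1 read -0.65 and -0.74 with paclitaxel (-0.69 ± 0.07, adjusted p = 0.00152) and -0.40 and -0.52 with cytochalasin D (-0.46 ± 0.07, adjusted p = 0.00706).

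DDX21 was at -0.50 with paclitaxel and -0.56 with cytochalasin D, but at -0.04 and -0.10 with the channel term, without a call. HNRNPU (-0.29) and DDX1 (-0.25) with cytochalasin D and HNRNPUL1 (-0.34) with paclitaxel also lost their calls with that term. HNRNPUL1, a relative of HNRNPU, fell by 0.30 and 0.52, and SF3B2 fell by 0.29 and 0.26. Cytochalasin D alone of these 2 drugs gave calls for DDX6 (-0.65), HNRNPU (-0.49), SRSF3 (-0.45), HNRNPK (-0.36), DDX1 (-0.31) and the RBMY1A1 probe (-0.90), but these 2 drugs were not tested against each other. Without 1 or the other replicate of their own drug the calls of SF3B2 and HNRNPUL1 with paclitaxel (-0.28 and -0.25 without replicate 1, -0.30 and -0.34 without replicate 2) were lost. So were those of HNRNPK (-0.35 and -0.37), HNRNPU (-0.50 and -0.48), DDX1 (-0.34 and -0.29), SF3B2 (-0.22 and -0.31) and RBMY1A1 (-0.93 and -0.88) with cytochalasin D. DDX6 (-0.42), SF3B1 (-0.40) and HNRNPUL1 (-0.51) with cytochalasin D were lost without its replicate 2.

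**Figure D3:**
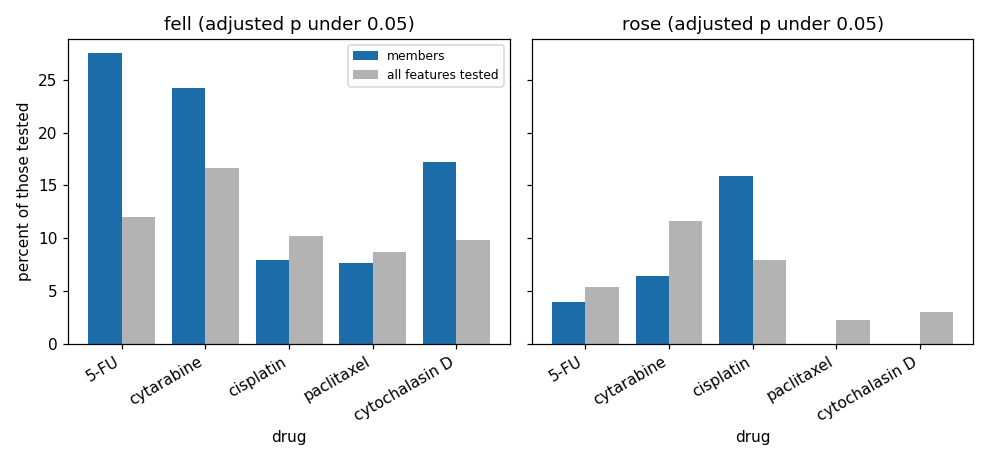
Percent of tested members (blue) and of all tested features (grey) that fell (left) or rose (right) at an adjusted p under 0.05 with each drug. Falls reached 27.5% of members with 5-FU against 12% of all features, and rises reached 15.9% with cisplatin against 7.93%.

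5-FU was next set against the other drugs directly, on the 10 arrays that carry treated RNA in channel 1, so that the channel effect cancels. Against the mean of the other 4 drugs, 17 of 55 tested members were lower with 5-FU (30.9%, where 13.9% of all features were lower) and 3 were higher (5.45%, where 9.77% of all were higher). The members' median difference was -0.158, against -0.030 over all features. Taken 1 drug at a time, 14 of 55 members were lower with 5-FU than with cytarabine (13.9% of all features) and 5 higher (10.8% of all). Against cisplatin 19 of 56 were lower (12.7% of all) and 1 higher (6.93% of all). Against paclitaxel 11 of 58 were lower (9.65% of all) and 2 higher (7.04% of all), and against cytochalasin D 13 of 57 were lower (9.49% of all) and 6 higher (6.87% of all). In these separate tests 8 members were lower in all 4, HNRNPA1, HNRNPA2B1, HNRNPK, HNRNPU, RBMX, SNRPF, SRSF4 and SRSF9 (14.5% of 55, where 5.91% of all features were), and 1 was higher in all 4, DDX52 (3.2% of all features were).

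HNRNPA2B1 was lower by 1.47 ± 0.11 than the mean of the others (adjusted p = 0.00016), at -1.79 and -1.80 on the reversed 5-FU arrays against -0.66 to -0.06 on the other 8. RBMX was lower by 1.40 ± 0.09 (adjusted p = 9.7e-05), and its other 8 arrays lay between -0.40 and 0.01. HNRNPA1 was lower by 1.23 ± 0.14 (adjusted p = 0.00119), against -0.45 to 0.09 on the 7 other arrays that measured it. For each of these 3 genes the 2 reversed 5-FU arrays lay below all arrays of the other drugs. On the forward arrays, which this comparison leaves out, HNRNPA2B1 read -0.96 and 0.73 and so lay on both sides of the other drugs.

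SNRPF was lower by 1.06 ± 0.09 (adjusted p = 0.00019), and on the 8 other arrays it stayed between -0.11 and 0.20. HNRNPU was lower by 0.91 ± 0.13 (adjusted p = 0.00221), with its closest drug cytochalasin D, where it was itself down (difference -0.63, adjusted p = 0.0383). HNRNPK was lower by 0.60 ± 0.07 (adjusted p = 0.00092), with its closest drug cytarabine (difference -0.38, adjusted p = 0.0198). The SR genes SRSF9 (-0.71 ± 0.07, adjusted p = 0.00036) and SRSF4 (-0.87 ± 0.12, adjusted p = 0.00156) were near 0 or above with the other drugs, at 0.04 to 0.20 and -0.11 to 0.40.

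A further 9 members were lower against the mean without passing all 4 pair tests. DDX5 (-0.80), RBM19 (-0.62), HNRNPF (-0.58), RBM25 (-0.46) and RBM10 (-0.33) passed against 3 of the drugs. SNRPN (-0.77) and SF3B3 (-0.62) passed against 2, and PRPF3 (-0.37) and DDX1 (-0.35) against cisplatin alone. DDX5 and RBM19 were each read on 1 reversed 5-FU array, at -0.96 and -0.59, so their difference rests on that single array and a spread taken from the other drugs. The call of SNRPN did not hold with 1 5-FU replicate left out (-0.79 and -0.76). With both 5-FU orientations averaged in place of the reversed arrays, HNRNPA2B1 (-0.63, adjusted p = 0.0691), SRSF4 (-0.48, adjusted p = 0.0723), DDX5 (-0.42, adjusted p = 0.0677) and SNRPN (-0.48, adjusted p = 0.132) no longer passed against the mean. HNRNPA2B1 then passed none of the 4 pair tests either, with limma adjusted p from 0.0579 against cisplatin to 0.364 against cytochalasin D. PRPF3, lower on the reversed arrays, was at 0.09 with both orientations averaged, above each other drug (-0.26 to -0.12).

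DDX52 showed the opposite pattern. With 5-FU it read -0.14 and 0.15 forward and 0.04 and 0.18 reversed (0.06, adjusted p = 0.706), while all 8 arrays of the other drugs lay between -1.16 and -0.47. It was higher with 5-FU than with their mean by 1.00 ± 0.08 (adjusted p = 0.00017), from 0.68 against cisplatin to 1.21 against cytarabine. DHX38, a helicase of the second splicing step (0.49 ± 0.13), and RBM4B (0.37 ± 0.09) were also called higher, but turned to -0.17 and -0.18 when both orientations were averaged. DHX38 read -0.58 and -0.84 on the forward and 0.66 and 0.55 on the reversed 5-FU arrays, so its sign follows the channel. Without 5-FU replicates 1 and 2 the values were 0.44 and 0.55 for DHX38 and 0.39 and 0.34 for RBM4B, all without a call.

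**Figure D4:**
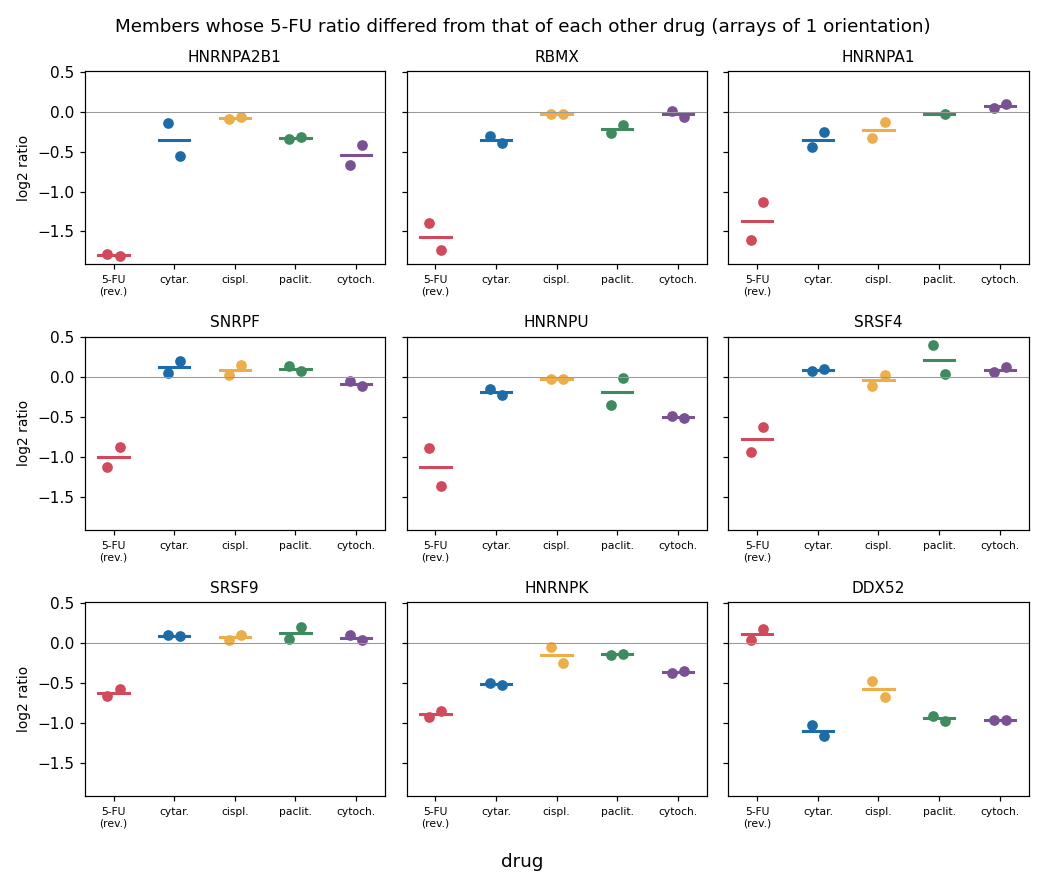
Log2 ratio of treated over untreated RNA for the 9 members that differed between 5-FU and each other drug, 1 panel per gene, over the 10 arrays with treated RNA in channel 1. Points are arrays and bars are the means of a drug; in each panel both reversed 5-FU arrays lie apart from all others, below them for 8 genes and above them for DDX52.

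Among the other 4 drugs the F test called 9 of 62 members (14.5%, where 9.97% of all features were called). SRSF3 had the smallest adjusted p (0.00593): it was up with cisplatin (0.47) and down with cytarabine (-0.20) and cytochalasin D (-0.45). SF3B1 (0.0133), SF3B2 (0.0165), RBM15 (0.0174), DDX5 (0.02), HNRNPC (0.0425), DHX57 (0.0429), HNRNPH2 (0.0482) and the RBMY1A1 probe (0.0131) followed, with adjusted p in brackets. The count fell to between 1 and 8 when 1 replicate was left out, and was lowest without cisplatin replicate 2. The other counts it fell to were 2 without cisplatin replicate 1, 3 without cytarabine replicate 2, and 5 without cytarabine replicate 1 or paclitaxel replicate 2. DDX52 was low with each of the 4 drugs, from -1.09 with cytarabine to -0.57 with cisplatin, and just missed the threshold in this F test (adjusted p = 0.0503).

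Genes of the same pathways outside the symbol rule were read from 6 lists. Over all features 12% fell and 5.41% rose with 5-FU. Of 22 tested further spliceosome proteins 5 fell (22.7%) and 2 rose (9.09%) (median -0.151, against 0.008 over all features). EFTUD2 and SNRNP200, the GTPase and the helicase of the U5 snRNP, fell by 0.77 ± 0.06 (adjusted p = 0.000144) and 0.67 ± 0.07. AAR2, which chaperones PRPF8 into U5, fell by 0.98 ± 0.09, and ZRSR2 of the minor spliceosome read -1.12 forward and -2.20 reversed in its 1 complete replicate. The call of ZRSR2 (-1.66 ± 0.37, adjusted p = 0.0444) was lost without 5-FU replicate 2 or either cisplatin array (-1.66 each), with arrays scaled to the same spread and with the replicate block (-1.86, adjusted p = 0.0619). Of 7 tested genes of snRNP assembly and cap binding 3 fell (42.9%) and 0 rose (1 at an unadjusted p under 0.05), with a median of -0.414. They were CLNS1A (-1.21 ± 0.14), STRAP (-0.74 ± 0.09) and GEMIN2 (-0.59 ± 0.08), all of which act in loading Sm proteins such as SNRPF onto small nuclear RNA. STRAP was also below 0 on every array of the other drugs (-0.58 to -0.12), while CLNS1A and GEMIN2 lay on both sides of 0.

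Of 27 tested other splicing regulators 5 fell (18.5%) and 0 rose (2 at an unadjusted p under 0.05), among them SFPQ (-0.93 ± 0.09), SON (-0.60 ± 0.12, 1 replicate), EWSR1 (-0.59 ± 0.12) and TAF15 (-0.36 ± 0.08). The list's median was -0.044. SON was at -0.01 on the forward and -1.19 on the reversed array of its 1 replicate, so only 1 array was low. The calls of EWSR1 (-0.65 and -0.53) and TAF15 (-0.36 and -0.35) were lost without 5-FU replicates 1 and 2. Of 14 tested genes of ribosomal RNA modification and the RNA exosome 6 fell (42.9%) and 0 rose (0 at an unadjusted p under 0.05), with nucleolin, NCL, at -0.98 ± 0.08 and a median of -0.124. NOP14 (-0.81), EXOSC10 (-0.81, both from 1 replicate) and NOLC1 (-0.66) also fell, and the call of NOLC1 was lost without replicates 1 (-0.71) and 2 (-0.61). Falls in this list were not particular to 5-FU. They reached 33.3% with cytarabine (16.6% of all features) and 23.5% with cisplatin (10.2% of all). With paclitaxel they reached 17.6% (8.68% of all) and with cytochalasin D 25% (9.8% of all). Rises were 2 with cisplatin and 0 with cytarabine, paclitaxel and cytochalasin D. NCL read -0.61 to -0.13 on the arrays of the other drugs. Of 8 genes of 3′ end processing CSTF2 (-0.35) and PABPC4 (-0.32) fell (25%) and 0 rose (0 at an unadjusted p under 0.05). Without 5-FU replicates 1 and 2 neither was called, with CSTF2 at -0.42 and -0.28 and PABPC4 at -0.35 and -0.29. None of the 5 tested kinases of SR proteins was called in the limma test (0 rises and 1 fall at an unadjusted p under 0.05).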

How the data were processed

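The study holds 12 two-channel arrays of H460 RNA. The deposited values give, per probe, the log ratio of both channels, read here as log2. Its base, numerator, normalization and spot filter: not given in the sources used here. Each array was turned to treated over untreated and centred on its median. Of 8170 probes, 5930 match 1 gene, 79 several and 2161 none; probes of a gene were averaged, giving 7739 features. Of the 79, 3 have a gene under the symbol rule among their matches. They were left out of the members but stayed in the fits as features of their own.

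Linear models were fitted with limma 3.58.1 moderation in R 4.3.3, over features with missing values, with Benjamini-Hochberg adjusted p under 0.05 over all features. Each drug was fitted against untreated RNA over 10 replicates without a channel term, where a 5-FU replicate needs both orientations. Drugs were contrasted over the 10 arrays with treated RNA in channel 1. With 1 usable replicate, the spread is taken from the other drugs. No test was run on a list as a whole.

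The fit was tested on simulated data without a channel effect. With 5-FU it recovered 34 of 67 log2 changes of 0.5, 56 of 67 changes of 1 and 64 of 66 changes of 2, with 1 false call. With cytarabine it recovered 29 of 67, 57 of 67 and 64 of 66, with 13 false calls. A missing call therefore does not show that a gene was unchanged. The members and lists were chosen with earlier results of these data known. The naming rule takes all members called with 5-FU and, for each other drug or contrast, up to 8 each way by size; the further called members of cytarabine, cisplatin and cytochalasin D were named after their values were seen. Also named are the highest and lowest member of a family with 5-FU, members whose probes differ in sign, and the leading genes of each list. Alternatives were a channel term, 1-orientation replicates kept, arrays as own observations, centring, scale, complete features, a replicate block, robust moderation, single probes, a minimum change, fewer arrays and leaving out replicates. Symbols and positions follow RefSeq on GRCh38.p14.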

Additional observations from a re-analysis of the deposited data

Results flagged for a closer look

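Among the 28 named members with a value on all 4 5-FU arrays, 3 had an array whose gap to the nearest of the others, divided by the whole range, passed Dixon's critical value for 4 samples. Chance flags about 1 in 20 such groups. HNRNPA1 read -1.13 on the reversed array of replicate 2, against -1.60 to -1.53 on the others (ratio 0.852). DHX57 read 0.43 on the forward array of replicate 2, against -0.07 to -0.01 (ratio 0.878). SNRPE read 0.22 on that same array, against -0.16 to -0.09 (ratio 0.830), and this array has the most missing values of the 12 (46.7%). The part of those missing values in these readings was not tested.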

How the results depend on the processing

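The counts of members called against untreated RNA were 16 for 5-FU, 19 for cytarabine, 15 for cisplatin, 5 for paclitaxel and 11 for cytochalasin D, with 20 for 5-FU against the mean of the other 4, 9 past all 4 pair tests and 9 in the F test. With only features read on every array, 5-FU gave 10, cytarabine 11 and the mean contrast 13. With only the arrays of the drug compared, the 5 drugs in that order gave 9, 10, 7, 3 and 6. With each array entered separately, cytarabine gave 9, cisplatin 8 (3 rose, 5 fell), paclitaxel 3 and cytochalasin D 6. A channel term left 7 for cytarabine and 7 for cytochalasin D, and arrays scaled to the same spread gave 8 for paclitaxel. At a minimum absolute log2 ratio of 1 the 8 counts were 2, 3, 0, 0, 0, 5, 3 and 2. Leaving out 1 replicate gave 8 to 14 for 5-FU, 10 to 20 for cytarabine, 5 to 13 for cisplatin, 3 to 6 for paclitaxel and 3 to 12 for cytochalasin D. It gave 13 to 22 for the mean contrast, 7 to 12 for all 4 pairs and 1 to 8 for the F test. The replicate block gave 13 for 5-FU, 19 for cytarabine and 6 for the F test; the numbers are shared only as labels, and nothing shows that they pair samples.

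Alternatives added after seeing the data called 11 of 38 members with 5-FU on features read on all 4 of its arrays, 20 of 59 on the reversed arrays alone and 21 of 57 on the forward arrays alone. The shares of all features called in these settings are not given here, so these counts do not compare members with other features. Signs reversed for DDX21 (0.27 on forward arrays alone; 0.021 with cytarabine and a channel term), HNRNPC (-0.067 with cytarabine and a channel term), and, with both orientations averaged, DHX38 (-0.17) and RBM4B (-0.18; -0.039 against cytarabine). Among members not called with 5-FU, the reversed arrays alone turned LSM5 (-0.0105), PRPF3 (-0.55), PRPF8 (0.13), SF3A3 (-0.23) and SRSF3 (0.018). SF3A3 also turned with 1-orientation replicates kept (-0.18) and with each array entered separately (-0.012). Without 5-FU replicates 1 and 2, LSM5 was at 0.078 and -0.039 and PRPF3 at -0.33 and 0.51. PRPF3, called lower against the mean of the other drugs, lay above each of them with both orientations averaged (0.09 against -0.26 to -0.12). Over all features, a channel term moved rises and falls from 812 and 1165 to 514 and 536 for cytarabine, 575 and 740 to 419 and 383 for cisplatin, 162 and 626 to 128 and 195 for paclitaxel and 216 and 707 to 215 and 317 for cytochalasin D. The cause was not tested. All 148 results for named genes, members and list genes together, kept call and direction under robust moderation, and 82 did on leaving out each replicate. Without spot intensities, how far signals stood above background is not known.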

Other observations

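A probe that the annotation matches to several genes, 1 of them with an RBM symbol, was left out of the members. It read 1.36 and 1.62 on the forward and 0.97 and 0.71 on the reversed 5-FU arrays. With the other drugs it was below 0 on all 8 arrays, at -0.96 and -1.24 with cytarabine, -0.22 and -0.36 with cisplatin, -0.69 and -0.92 with paclitaxel and -0.36 and -0.76 with cytochalasin D. Which gene the signal comes from was not tested, and the probe was chosen after its values were seen.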
